A study of Mus musculus with 4 samples.

Results

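The EGR and NR4A genes are immediate-early transcription factors, and they were examined in LSK cells of mice that lack Aspp1, p53, both or neither. The 9 members were Egr1, Egr2, Egr3 and Egr4, their co-regulators Nab1 and Nab2, and Nr4a1, Nr4a2 and Nr4a3, chosen as every non-control probe whose gene name on the array is one of these symbols. They were covered by 11 probes in 20 spots per array, of 22777 genes or transcripts that were well above background on at least 1 array. LSK cells are the lineage(-) Sca-1(+) cKit(+) fraction of bone marrow, which holds the blood stem cells and early progenitors.

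There were 4 groups with 1 single-colour Agilent array each, and RNA of 3 male C57BL/6 mice was pooled for each array. The Aspp1-/-p53-/- array came from Aspp1-/- mice with p53flox/flox and Mx1-Cre, and the p53-/- array from p53flox/flox mice with Mx1-Cre. The Aspp1-/- and WT arrays came from mice without a floxed p53 allele or Cre in the labels. Mx1-Cre is a Cre recombinase under an interferon-inducible promoter, and it acts in blood cells and also in other cells that respond to interferon. All mice, WT included, received pIpC, an interferon inducer, in 5 injections every other day from 8 weeks of age, and their marrow was collected at 12 weeks, 4 weeks on. The design text gives 400 µg per injection, while the sample labels read 403, 402, 401 and 400 µg for Aspp1-/-p53-/-, p53-/-, Aspp1-/- and WT. The arrays without p53 lay in row 2 of the slide and those with p53 in row 1, so p53 loss, Mx1-Cre and slide row cannot be told apart. Both arrays with Aspp1 lay in column 1, the Aspp1-/- array in column 2 and the Aspp1-/-p53-/- array in column 4. Aspp1 loss and slide column therefore cannot be told apart either.

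EGR proteins are zinc finger factors that bind GC-rich sites, and NR4A proteins are orphan nuclear receptors that act without a known hormone. Their genes are switched on within minutes by growth factors, cytokines and stress, through serum response factor and CREB, without new protein synthesis, and they are also known to respond to tissue dissociation. In mouse blood, Egr1 is known for holding stem cells quiescent and in the marrow niche, and combined loss of Nr4a1 and Nr4a3 is known to lead to acute myeloid leukaemia.

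In Aspp1-/-p53-/- cells, 6 of the 9 members were at least 2-fold lower than in WT, namely Egr2, Egr3, Egr4, Nr4a1, Nr4a2 and Nr4a3, while 2.47 percent of 21248 genes were at least 2-fold lower. The same count was 2 of 9 in p53-/- cells, Egr3 and Nr4a3, beside 1.55 percent of all genes, and 1 of 9 in Aspp1-/- cells, Egr3, beside 2.16 percent. No member was at least 2-fold higher in any of these comparisons, where 3.56, 3.65 and 1.33 percent of genes were. Nab1 and Nab2 stayed within 1.34-fold of WT with every probe. Each difference below is on the log2 scale between 2 arrays, and with 1 array per genotype there is no replicate check and no test between 2 arrays. The error given with it comes from the scanner's own model of each spot and holds no spread between mice. In pooled cells, fewer cells of a type and less RNA per cell cannot be told apart.

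Of the 9 members, 7 were well above background on all 4 arrays, and on those genes the counts were 4 of 7 in Aspp1-/-p53-/-, 0 of 7 in p53-/- and 0 of 7 in Aspp1-/-, beside 1.44, 0.542 and 0.242 percent of 19008 genes. None of the 7 was 2-fold higher, where 0.831, 0.547 and 0.279 percent of genes were. Egr3 and Nr4a3 were dim, and neither was well above background on the 2 arrays without p53. A level is given as array signal scaled to the WT array's 75th percentile, the value below which 75 percent of gene spots lie, and it can be compared between arrays for 1 probe but not between probes. Where a dim array gives only a limit, a fold is written as "at least".

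**Figure D1:**
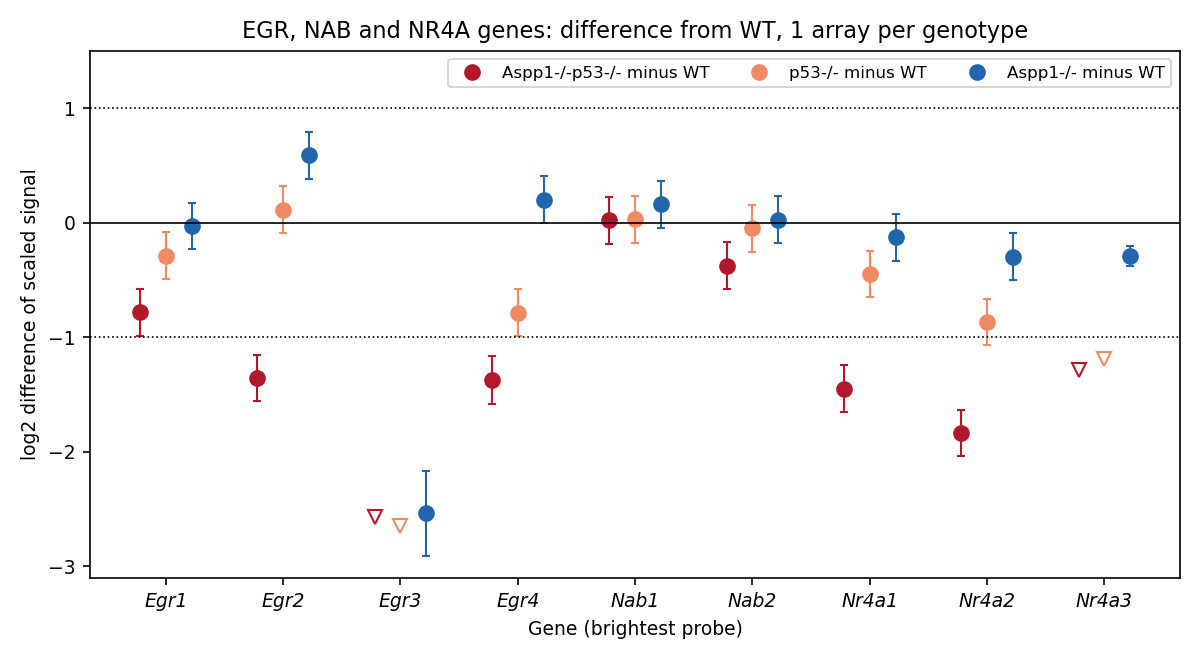
Log2 difference of scaled signal from WT (vertical axis) for the brightest probe of each of the 9 genes, with Aspp1-/-p53-/- in red, p53-/- in orange and Aspp1-/- in blue. Bars are the scanner error of the difference, and dotted lines mark 2-fold. Open triangles are limits where the dim array was not well above background, except Nr4a3 in p53-/-, drawn at its measured difference. Red symbols lie below −1 for 6 genes, while both NAB genes lie near 0.

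The stretches before the start sites are shown for the 5 genes that fell 2-fold in Aspp1-/-p53-/- cells and that have a window here, to show the letters that precede the genes lower on that array. They come from RefSeq's 300-base windows, 250 before to 50 after the start, and only the 250 bases upstream are printed. Windows of 7 of the 9 members were searched. No window was found for Egr3, and Egr1 was left out of the search, so the motif results below do not cover these genes. The motifs searched on both strands were the cAMP response element TGACGTCA and its half-site TGACG, bound by CREB family proteins, the CArG box of serum response factor, the EGR sites GCGGGGGCG and GCGTGGGCG, the NR4A monomer site AAAGGTCA and the TATA box TATAAA. Capitals mark matches, and a half-site on the opposite strand reads CGTCA.
Egr2, GRCm38.p6 chr10:67537619-67537868, plus strand: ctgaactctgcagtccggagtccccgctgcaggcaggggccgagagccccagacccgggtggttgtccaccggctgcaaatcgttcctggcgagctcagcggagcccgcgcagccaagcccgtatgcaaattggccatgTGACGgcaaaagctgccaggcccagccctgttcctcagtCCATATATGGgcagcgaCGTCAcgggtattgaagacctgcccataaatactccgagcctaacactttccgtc
Egr4, GRCm38.p6 chr6:85513590-85513839, minus strand: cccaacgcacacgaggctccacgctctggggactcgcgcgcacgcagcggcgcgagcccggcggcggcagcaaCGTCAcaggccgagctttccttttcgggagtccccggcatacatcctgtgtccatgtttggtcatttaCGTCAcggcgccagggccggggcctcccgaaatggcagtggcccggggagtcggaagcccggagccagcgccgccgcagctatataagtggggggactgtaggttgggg
Nr4a1, GRCm38.p6 chr15:101266596-101266845, plus strand: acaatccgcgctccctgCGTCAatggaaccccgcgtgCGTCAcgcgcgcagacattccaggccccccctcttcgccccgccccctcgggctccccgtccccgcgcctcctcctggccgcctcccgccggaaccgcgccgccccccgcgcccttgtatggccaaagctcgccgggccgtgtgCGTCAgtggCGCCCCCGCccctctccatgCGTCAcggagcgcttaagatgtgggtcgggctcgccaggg
Nr4a2, GRCm38.p6 chr2:57124004-57124253, minus strand: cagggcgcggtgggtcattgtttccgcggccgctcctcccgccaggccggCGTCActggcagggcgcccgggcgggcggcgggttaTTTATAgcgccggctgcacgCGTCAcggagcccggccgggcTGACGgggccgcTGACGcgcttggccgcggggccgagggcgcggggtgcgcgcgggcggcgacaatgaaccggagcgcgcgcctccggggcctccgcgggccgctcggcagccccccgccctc
Nr4a3, GRCm38.p6 chr4:48045055-48045304, plus strand: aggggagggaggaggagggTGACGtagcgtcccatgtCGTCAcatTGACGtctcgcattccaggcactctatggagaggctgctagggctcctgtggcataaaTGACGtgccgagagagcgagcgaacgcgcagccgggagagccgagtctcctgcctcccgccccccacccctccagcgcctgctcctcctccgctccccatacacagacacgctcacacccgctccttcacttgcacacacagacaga
Nr4a1, Nr4a2 and Nr4a3 each held 4 half-sites, a number that 0.231 percent of all 32851 windows reach. Egr4 held 2 half-sites, and Egr2 held 2 around a CArG box at −72 to −63 in this window, 1 of its 5. At least 1 half-site was present in 8 of the 11 windows of the 7 members, against 20.8 percent of all windows, and at least 2 were present in 5.01 percent of all. Nab1 held 1, and 3 of the Egr2 windows held 2 and overlap. Nab2 held no match to any of these motifs in this window. Nab1 held 2 GCGTGGGCG sites and 1 GCGGGGGCG site, forms present in 0.612 and 2.91 percent of windows, and Nr4a1 held 1 of the second form at −60 to −52. A CArG box was in 1.63 percent of windows, and the full cAMP element in 1.79 percent and none of the members' windows searched. The NR4A site was in 1.51 percent and none of the members' windows searched. The TATA box was in 13.6 percent, among them that of Nr4a2 on the opposite strand. The members' windows searched had 56.0 to 81.7 percent G and C, against a median of 52.7 percent over all windows. This composition bears on GC-rich motifs. These matches describe letters only.

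Egr1, the founding member of the EGR group, had a scaled signal of 59236 in Aspp1-/-p53-/-, 83370 in p53-/-, 99811 in Aspp1-/- and 101870 in WT cells. The double array was lowest and both single arrays lay closer to WT. The difference from WT was −0.78 (scanner error 0.20) in Aspp1-/-p53-/-, −0.29 in p53-/- and −0.03 in Aspp1-/-, none of them 2-fold. Against p53-/-, Aspp1-/-p53-/- was at −0.49, which is 2.42 times its scanner error, while the gaps from p53-/- to Aspp1-/- and from Aspp1-/- to WT were below 2 errors. The probe lies in mm9 at chr18:35024395-35024454 on the plus strand.

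Egr2, known for driving myelination and for roles with Egr1 in macrophage and T cell fate, read 875 in Aspp1-/-p53-/-, 2424 in p53-/-, 3366 in Aspp1-/- and 2240 in WT cells (mm9 chr10:67004798-67004857, plus strand). Its highest level was in Aspp1-/- cells, 2.32 scanner errors above the next array, and its lowest in the double knockout. It fell by 1.36 in Aspp1-/-p53-/- against WT, by 1.47 against p53-/- and by 1.94, or 3.85-fold, against Aspp1-/-. The single arrays stood at 0.11 (p53-/-) and 0.59 (Aspp1-/-) from WT, each with a scanner error of 0.20, and the p53-/- and WT arrays did not differ beyond it. The levels of Egr2 thus ran, low to high, from Aspp1-/-p53-/- through WT and p53-/-, whose order is not settled, to Aspp1-/-.

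Egr3, which acts beside Egr2 in T cells, read 24.7 in Aspp1-/- and 143.7 in WT cells, and on the other arrays its probe did not stand well above background (mm9 chr14:70479222-70479281, plus strand). Measured signals there were 6.43 in Aspp1-/-p53-/- and 12.4 in p53-/- cells, values the scanner cannot tell from background. The level was at least 5.92-fold lower in Aspp1-/-p53-/- than in WT and at least 6.25-fold lower in p53-/- than in WT. Over the other ways of processing, these log2 differences shrank to as little as −1.13 and −1.28, still past 2-fold. In Aspp1-/- cells Egr3 fell by 2.54 (scanner error 0.37), or 5.81-fold, the one 2-fold difference among the members in that genotype. The size of this difference rests on 1 spot at low signal, and with another background correction it was −1.15. Between Aspp1-/-p53-/- and p53-/- no fold can be given, and against Aspp1-/- the limit was at least 1.02-fold lower.

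Egr4 read 217.0 in Aspp1-/-p53-/-, 326 in p53-/-, 647 in Aspp1-/- and 563 in WT cells (mm9 chr6:85461153-85461212, minus strand). Both arrays without p53 were lower than both arrays with it. It fell by 1.37 in Aspp1-/-p53-/- against WT and by 1.58 against Aspp1-/-, with scanner errors of 0.21. In p53-/- cells it stood at −0.79 from WT, and the double array was at −0.59 from p53-/-, each over 2 scanner errors, while Aspp1-/- and WT, at 0.20 apart, were not.

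Nab1 and Nab2 encode NGFI-A binding proteins, which attach to EGR factors and mostly repress their activity, and the Nab2 gene is itself a known EGR target. Nab1 read 1080 in Aspp1-/-p53-/-, 1086 in p53-/-, 1190 in Aspp1-/- and 1065 in WT cells, a span of 0.16 on the log2 scale that lies within 1 scanner error (mm9 chr1:52515132-52515191, minus strand). Nab2 read 2280 in Aspp1-/-p53-/-, 2859 in p53-/-, 3014 in Aspp1-/- and 2962 in WT cells with its brighter probe (mm9 chr10:127098009-127098068, minus strand). Its difference from WT was −0.38 in Aspp1-/-p53-/-, −0.05 in p53-/- and 0.03 in Aspp1-/-, and no neighbouring pair of arrays was 2 scanner errors apart. The second Nab2 probe, for transcript NM_001122895 (mm9 chr10:127101413-127101472, minus strand), was dim and stood at −0.42 from WT in Aspp1-/-p53-/-, −0.22 in p53-/- and −0.03 in Aspp1-/-, with errors of 0.35, 0.33 and 0.28.

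Nr4a1, or Nur77, which is induced by antigen receptors and needed for patrolling monocytes, read 82500 in Aspp1-/-p53-/-, 165147 in p53-/-, 206256 in Aspp1-/- and 225342 in WT cells (mm9 chr15:101105071-101105130, plus strand). The double array stood well below the other 3. Among those 3, neighbouring arrays were less than 2 scanner errors apart, while p53-/- was 2.20 errors below WT. Nr4a1 fell by 1.45 (scanner error 0.20), or 2.73-fold, in Aspp1-/-p53-/- against WT and by 1.32 against Aspp1-/-. Against p53-/- it fell by 1.001, at the 2-fold threshold itself, and 4 of 7 other ways of processing put this value just short of it. The single knockouts stood at −0.45 (p53-/-) and −0.13 (Aspp1-/-) from WT.

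Nr4a2, or Nurr1, known for dopamine neurons and for stem cell quiescence when overexpressed, read 2076 in Aspp1-/-p53-/-, 4065 in p53-/-, 6031 in Aspp1-/- and 7417 in WT cells (mm9 chr2:56960699-56960758, minus strand). The double array was lowest and p53-/- next, each more than 2 scanner errors below its upper neighbour, while Aspp1-/- and WT were 1.46 errors apart. Nr4a2 fell by 1.84, or 3.57-fold, in Aspp1-/-p53-/- against WT and fell by 1.54 against Aspp1-/-, with scanner errors of 0.20. The value was −0.87 in p53-/- and −0.30 in Aspp1-/- against WT. A second probe of the same transcript (mm9 chr2:56959637-56959696, minus strand) read 563 in Aspp1-/-p53-/-, 1157 in p53-/-, 1943 in Aspp1-/- and 2102 in WT cells, and its difference from WT was −1.90 in Aspp1-/-p53-/-, −0.86 in p53-/- and −0.11 in Aspp1-/-. For Aspp1-/-p53-/- against p53-/-, the brighter probe gave −0.97 and the second −1.04, on either side of the 2-fold threshold.

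Nr4a3, or Nor-1, was printed 10 times per array with the same 60-base probe, which spans 3187 bases of mm9, chr4:48080690-48083876 on the plus strand, and so crosses an intron. It is shown because these spots are the one repeated measurement among the members.
Nr4a3 probe: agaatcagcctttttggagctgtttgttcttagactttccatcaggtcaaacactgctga
Spots ran from 5.54 to 17.6 with a median of 6.36 in Aspp1-/-p53-/- (9 spots, with 1 at 24.6 left out for an outlier flag), and from 20.3 to 34.7 with a median of 25.3 in p53-/- cells. They ran from 32.8 to 56.9 with a median of 50.2 in Aspp1-/- and from 47.3 to 69.3 with a median of 59.3 in WT cells. Of the spots used, 0 of 9 were well above background in Aspp1-/-p53-/-, 3 of 10 in p53-/-, 10 of 10 in Aspp1-/- and 10 of 10 in WT. No spot used without Aspp1 and p53 reached any spot of the other 3 arrays, and the WT spots lay above every p53-/- spot. These spots share 1 RNA pool and 1 array, so they show the precision of the scan and not the spread between mice.

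As limits, Nr4a3 was at least 2.44-fold lower in Aspp1-/-p53-/- than in WT and at least 1.99-fold lower in Aspp1-/-p53-/- than in Aspp1-/-. In p53-/- cells it was 2.28-fold lower than in WT (−1.19), which is the measured difference and not a limit. The p53-/- signal lay above the lowest signal well above background on that array, though most of its spots were not well above background. The 2-fold call of Nr4a3 in p53-/- rests on this value. The measured log2 differences were −3.08 for Aspp1-/-p53-/- against WT and −2.79 for Aspp1-/-p53-/- against Aspp1-/-, from signal not well above background. With normexp background correction the values against WT shrank to −0.36 for Aspp1-/-p53-/- and −0.47 for p53-/-, short of 2-fold. The Aspp1-/- array stood at −0.29 from WT, with an error over spots of 0.086.

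**Figure D2:**
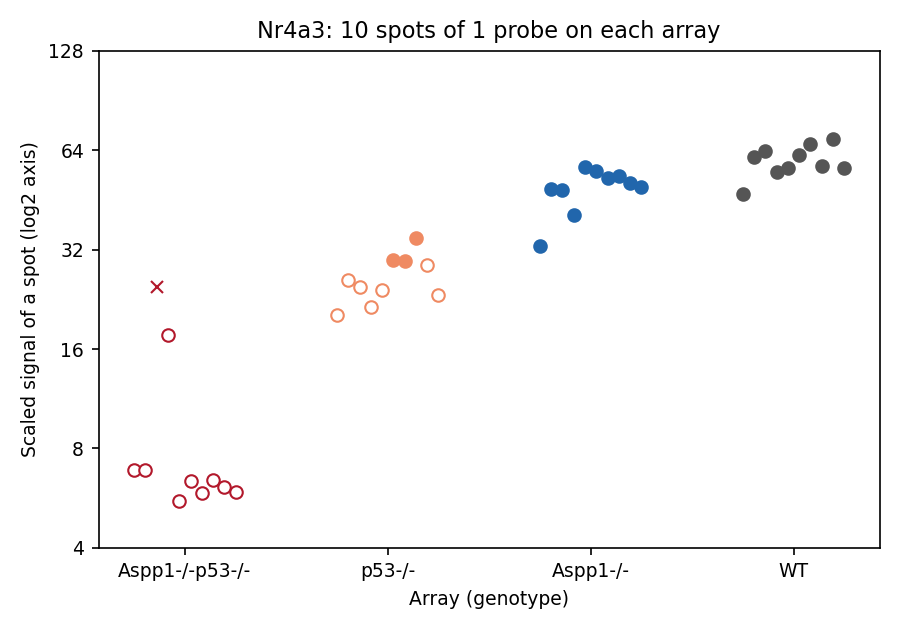
Scaled signal of each of the 10 Nr4a3 spots (vertical axis, log2 scale) on each array, left to right Aspp1-/-p53-/-, p53-/-, Aspp1-/- and WT. Filled points are well above background, open points are not, the cross is the spot left out, and horizontal spread only separates points; the medians are 6.36, 25.3, 50.2 and 59.3.

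Of the 7 members detected on every array, Aspp1-/-p53-/- held the lowest of the 4 levels for 6, all but Nab1, while 29.3 percent of 19008 genes had their lowest level there. For Egr3 and Nr4a3 neither array without p53 was well above background, so the lowest is not called. Both arrays without p53 were below both arrays with it for 5 of the 7, against 19.7 percent of genes. The exceptions were Egr2 and Nab1. In those 5 the double array was also below p53-/-, an order that 13.8 percent of genes show. The median difference of the members from WT was −1.36 in Aspp1-/-p53-/-, −0.45 in p53-/- and −0.03 in Aspp1-/-, where the median of all genes tested was 0.01 each time. Where Egr3 and Nr4a3 have limits, these medians count them there, and Nr4a3 in p53-/- at its measured difference. Over the 7 members detected on every array the medians were −1.36 in Aspp1-/-p53-/-, −0.29 in p53-/- and 0.03 in Aspp1-/-. These comparisons share the WT array.

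**Figure D3:**
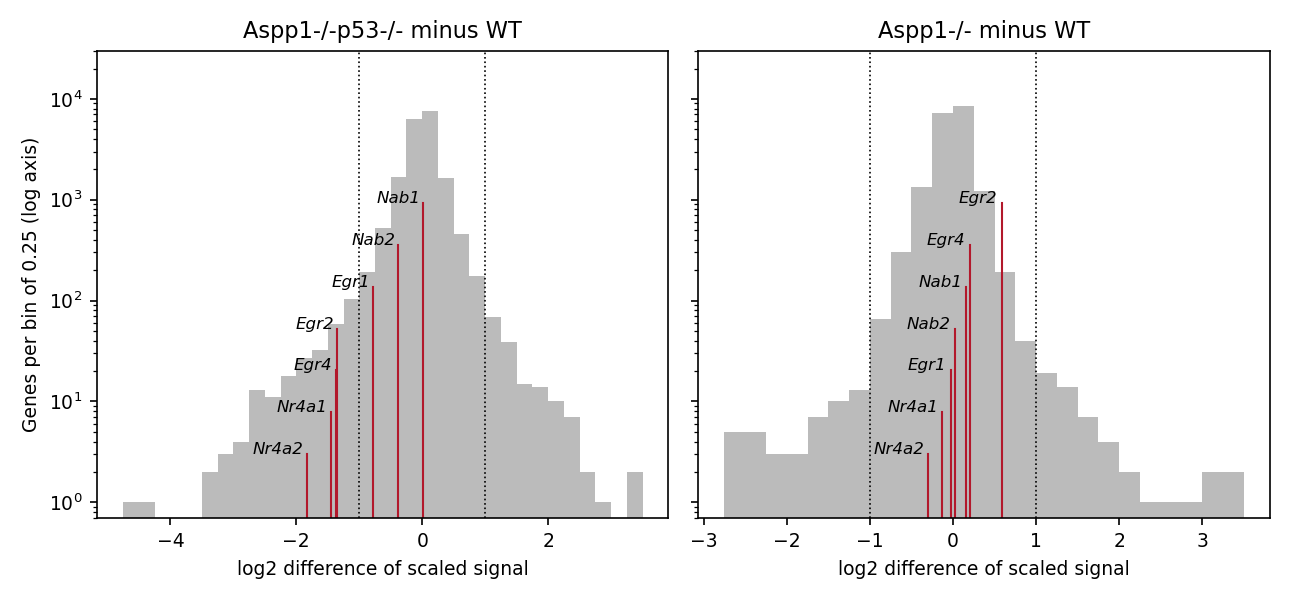
Number of genes per 0.25 log2 (grey, log axis) by their difference from WT, over the 19008 genes well above background on all 4 arrays, with Aspp1-/-p53-/- on the left and Aspp1-/- on the right. Red lines mark the 7 members detected on all arrays, and their heights only separate the names; dotted lines mark 2-fold, which 4 members pass on the left and none on the right.

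The p53-null background allows Aspp1 loss to be read in cells without p53, and the Aspp1-null background p53 loss in cells without Aspp1. In Aspp1-/-p53-/- against p53-/-, 2 of 7 measured members were at least 2-fold lower, Egr2 at −1.47 and Nr4a1 at −1.001, beside 3.3 percent of 21146 genes, and all 7 were below 0, as were 50.5 percent of all genes. For these 7 genes, all detected on every array, the matching share of genes was 0.905 percent lower and 0.526 percent higher. In Aspp1-/-p53-/- against Aspp1-/-, 4 of 9 members were at least 2-fold lower, Egr2, Egr4, Nr4a1 and Nr4a2, beside 1.98 percent of 21104 genes, and no member was 2-fold higher in either comparison, where 2.5 and 3.74 percent of genes were. Among genes detected on every array, 0.963 percent were 2-fold lower and 0.621 percent higher in the second of these comparisons, against 4 and 0 of the 7 members.

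The part of the double knockout that the sum of the single differences does not give, on the log2 scale, was negative for all 7 members detected on every array and for 54.1 percent of 19008 genes. It was −2.06 for Egr2, −0.87 for Nr4a1, −0.79 for Egr4, −0.67 for Nr4a2, −0.46 for Egr1, −0.35 for Nab2 and −0.17 for Nab1, each with a scanner error of 0.29. Egr2 alone among them was at −1 or less, as were 1.06 percent of 19008 genes, while 0.758 percent were at 1 or more. The values for Egr1, Nab1 and Nab2 lay within 2 errors of 0. With 4 arrays this quantity uses all the data and could not be tested.

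**Figure D4:**
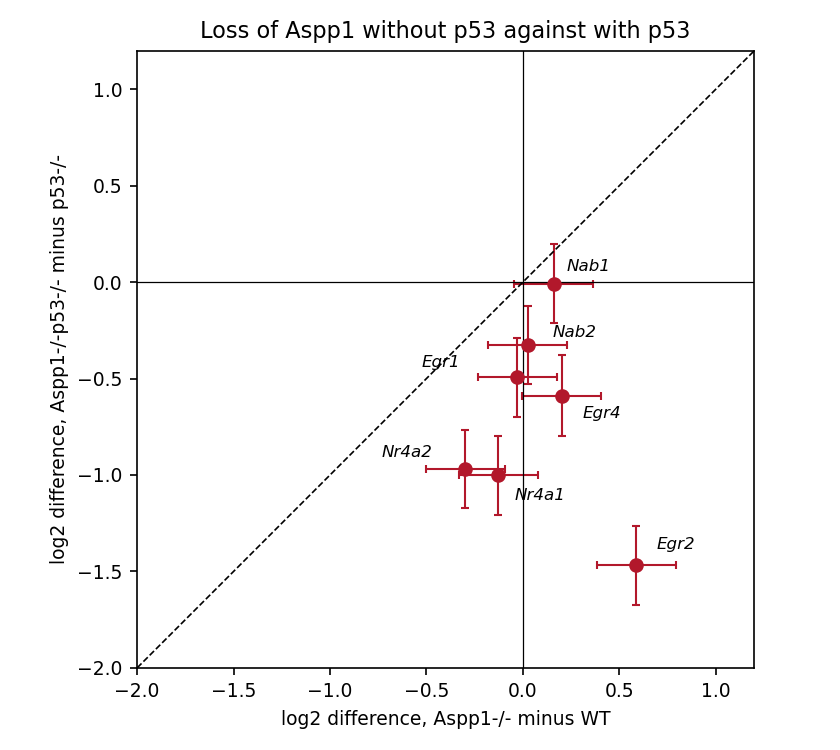
Log2 difference made by Aspp1 loss in p53-null cells (vertical axis, Aspp1-/-p53-/- minus p53-/-) against the same loss with p53 present (horizontal axis, Aspp1-/- minus WT) for the 7 members detected on all arrays. Bars are scanner errors and the dashed line marks equal differences; all 7 points lie below it, with Egr2 farthest at 0.59 and −1.47.

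An additive model of p53 loss and Aspp1 loss (limma, 1 residual degree of freedom, Benjamini-Hochberg adjustment over 22777 genes) called 115 genes for p53 loss, or 0.505 percent, and 2 for Aspp1 loss, or 0.00878 percent. It called 0 of the 9 members for either loss, while 6 members for p53 loss and 3 for Aspp1 loss had an unadjusted p below 0.05, as did 2877 and 2084 of all genes. Nr4a2 came closest for p53 loss, at −1.20 with a standard error of 0.16 and a limma adjusted p of 0.0631, lower in both arrays without p53 than in both with it. Egr4 was next, at −1.18 with a standard error of 0.19 and a limma adjusted p of 0.086. The other 7 had limma adjusted p-values from 0.151 (Egr1) to 0.792 (Nab1) for p53 loss, and for Aspp1 loss the lowest was 0.403 (Nr4a2). The 1 degree of freedom behind each gene's own spread is its non-additive part, and limma draws that spread toward the trend over all genes. This spread does not measure variation between mice or between arrays of 1 genotype. A large non-additive part, as for Egr2, widens it. The model took the measured signals of Egr3 and Nr4a3 rather than limits.

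The other genes of the same early response were read from a list of 24 that holds, among others, the FOS and JUN genes, Krüppel-like factors and Dusp1. In Aspp1-/-p53-/- against WT, 12 of 24 were at least 2-fold lower and 1 higher, beside 2.47 and 3.56 percent of all genes. Of the 24, 21 were below 0, beside 48.3 percent of all genes, and the median was −1.002. In p53-/- the counts were 3 lower and 0 higher, beside 1.55 and 3.65 percent, with a median of −0.40. In Aspp1-/- they were 0 and 0, beside 2.16 and 1.33 percent, with a median of −0.08. Atf3, a stress-induced repressor, fell in Aspp1-/-p53-/- (−3.48) and in p53-/- (−1.78), and stood at −0.72 in Aspp1-/-. Fosl2, an AP-1 subunit, fell by 3.12 in Aspp1-/-p53-/- and by 1.14 in p53-/-, though its second probe read 0.20 in p53-/-. Klf2, a factor of quiescent lymphocytes and endothelium, fell by 1.96 in Aspp1-/-p53-/- and stood at −0.87 in p53-/-. Arc, a synaptic immediate-early gene, went the other way, at 1.91, 0.96 and 0.69 in Aspp1-/-p53-/-, p53-/- and Aspp1-/-.

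Regulators known to act upstream of EGR and NR4A genes were read in the same way. Of 22 genes that include Srf, its ternary complex partners, CREB family members, MEF2 factors and the ERK kinases, 1 was at least 2-fold lower and 0 higher in Aspp1-/-p53-/-, beside 2.47 and 3.56 percent of all genes, with a median of −0.04. That gene was Crem, whose products include a cAMP-inducible repressor, which fell by 2.14 in Aspp1-/-p53-/- and by 1.15 in p53-/-. Its second probe gave −1.71 and −0.90. In the double knockout Mef2c was at −0.53. Mef2d was at −0.47 with its brightest probe and at −0.12 and −0.01 with 2 others, and Srf was at −0.27 and, with a second probe, −0.14. In p53-/- 1 gene and in Aspp1-/- 0 genes were 2-fold lower, beside 1.55 and 2.16 percent of all genes, with medians of −0.02 and −0.03.

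Among 16 genes known from other cells as targets of EGR factors, 3 were at least 2-fold lower and 0 higher in Aspp1-/-p53-/-. In p53-/- 1 and in Aspp1-/- 0 were lower. Of all genes, 2.47, 1.55 and 2.16 percent were lower in these comparisons, and 3.56 percent were higher in Aspp1-/-p53-/-. The medians in the same order were −0.01, −0.10 and −0.09. F3, tissue factor, fell by 2.92 in Aspp1-/-p53-/- and by 1.19 in p53-/-. Thbs1, thrombospondin 1, fell by 1.61 in Aspp1-/-p53-/-. Cdkn1a, the p21 cell cycle inhibitor and also a p53 target, fell to −1.54 from WT there with its brightest probe, while a second detected probe was at −0.13. Id3 was at −0.80. Among 11 detected of 12 genes known as NR4A targets or partners, 0 passed 2-fold in either direction in any comparison with WT. Their medians were −0.07, 0.06 and 0.10 in Aspp1-/-p53-/-, p53-/- and Aspp1-/-. Of all genes, 2.47, 1.55 and 2.16 percent were 2-fold lower and 3.56, 3.65 and 1.33 percent higher, in that order. A count of 0 of 11 is near these shares. In the double knockout Runx1 was at −0.54 (second probe −0.02), Myc at 0.45, Bcl2 at 0.41 and Cebpa at 0.40.

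**Figure D5:**
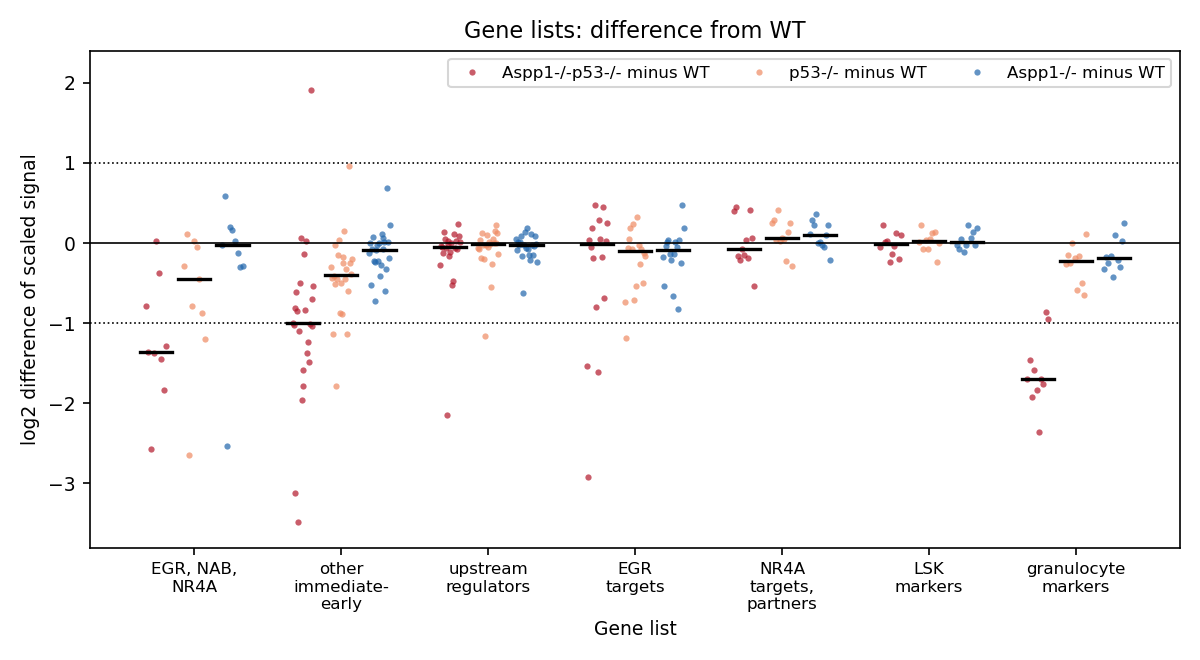
Log2 difference from WT (vertical axis) of each detected gene in the 9 members, the 4 related gene lists and 2 marker lists, with Aspp1-/-p53-/- in red, p53-/- in orange and Aspp1-/- in blue. Black bars are medians, dotted lines mark 2-fold and limits are drawn at the limit; the red medians are −1.36 for the members, −1.002 for other immediate-early genes and −1.70 for granulocyte markers, and lie near 0 for the other lists.

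By distance over the 3 log2 differences from WT among 13425 named genes, Egr1 lay closest to Tuba1a (0.063), Lmod3, Lrrc66, Adam8 and Ptgs2, the last at −0.70, −0.25 and 0.01 in Aspp1-/-p53-/-, p53-/- and Aspp1-/-. Nr4a1 lay closest to Btg2 (0.092), H2bc4, Gm5751, Ccl4 and Thbs1, with Btg2 at −1.38, −0.45 and −0.07. Egr2 had no gene as near, and its closest were Lrg1 (0.47), Grifin, Zfp438, Smim5 and Ifitm6. This likeness is over 4 arrays that share the WT value. The 5 named distances reached 0.097 for Egr1 and 0.18 for Nr4a1, below the scanner error of 0.20 of 1 difference. Which genes lie nearest to these 2 is therefore not settled.

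The targeted genes matched the labels. Ppp1r13b, which encodes ASPP1, a protein that binds p53 and steers it to pro-apoptotic targets, was at −2.62 from WT in Aspp1-/- cells, and its level in the double knockout was at −2.51 from p53-/-. Trp53 was at −2.18 from WT in p53-/- cells, and its level in the double knockout was at −2.13 from Aspp1-/-. Between 50.3 and 53.3 percent of 55675 probes were well above background per array, lowest in Aspp1-/-p53-/-, and no spot was saturated. All 10 LSK markers were well above background on each array, with medians of −0.01, 0.03 and 0.02 in Aspp1-/-p53-/-, p53-/- and Aspp1-/- against WT.

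Granulocyte markers were also lower in Aspp1-/-p53-/- cells. Of 10 genes, 8 were at least 2-fold lower and all were below 0 in Aspp1-/-p53-/- against WT, with a median of −1.70. Of all genes, 2.47 percent were 2-fold lower and 48.3 percent below 0 in this comparison. Against p53-/- and Aspp1-/- the median of the granulocyte markers was −1.49 and −1.42. Their summed scaled signal was 30595 in Aspp1-/-p53-/-, 79887 in p53-/-, 77644 in Aspp1-/- and 89504 in WT cells. In p53-/- the median was −0.22 and in Aspp1-/- −0.19, with 0 genes 2-fold lower in either, beside 1.55 and 2.16 percent of all genes. The part of granulocyte RNA in the levels of the EGR and NR4A genes was not tested. In Aspp1-/-p53-/- against WT, the medians of the other marker lists were 0.07 for monocytes and dendritic cells, 0.08 for B cells, −0.26 for T cells (4 of 9 genes detected), −0.28 for natural killer cells, 0.08 for erythroid cells, −0.07 for megakaryocytes, −0.08 for mast cells and −0.58 for stromal and endothelial cells. In the last list Cxcl12 was at −2.20 and Vcam1 at −2.05, in the T cell list Cd28 was at −2.49 and in the megakaryocyte list Plek was at −1.08. Pax5, Cd3d, Cd3g, Cd8a, Ncr1, Cma1, Ms4a2, Cdh5, Col1a1 and Pdgfra, which mark mature or non-blood cells, were not well above background on any array.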

How the data were processed

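Gene expression was measured on 4 single-colour (Cy3) Agilent arrays of 1 slide. Per the file headers, the deposited spot intensity came from Agilent's Feature Extraction 10.7.3.1, with background subtracted within each array and no normalisation between arrays. Groups came from the labels' titles. The log2 intensity less the array's 75th percentile over 59305 gene spots was analysed, leaving out 120 to 172 gene spots per array with outlier flags. A probe's spots were averaged, and the brightest probe well above background on at least 1 array stood for a gene. The deposited log2 value table served as an alternative; no source used here says how it was made. Set against the scanner signals, its columns held log2 signal less an array constant, centred per probe on the median of the arrays. The call was a 2-fold difference (log2 of 1). Where a dim array was not well above background, the limit used the higher of its own signal and the lowest signal well above background on that array. The additive model used limma 3.58.1 in R 4.3.3. Its code was run on simulated data with equal noise in every gene and no non-additive part, which does not test how the model fits these arrays. Other work used Python 3.11.15. Motifs were matched in RefSeq windows of GRCm38.p6, while probe positions are in mm9. All 9 members, the 2 targeted genes, up to 4 genes of each list with the largest difference in Aspp1-/-p53-/- and the 5 nearest genes to Egr1, Egr2 and Nr4a1 are named; marker genes without signal, and examples of what a list holds, were added. The members and lists were chosen with earlier results of these data known. Alternatives were normexp background correction (offset 50), median scaling, quantile normalisation, a percentile over detected probes, only probes detected on all 4 arrays, the mean of a gene's probes and the deposited value table.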

Additional observations from a re-analysis of the deposited data

Results flagged for a closer look

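Egr2 moved in opposite directions with Aspp1 loss in the 2 backgrounds. Without p53, the Aspp1-/-p53-/- array was at −1.47 from p53-/-, and with p53 present the Aspp1-/- array was at 0.59 from WT, on the log2 scale. The difference of these differences was −2.06 with a scanner error of 0.29, and it ranged from −2.06 to −1.93 over the ways of processing tried. With 1 array on each side, the difference was not tested. Egr2 has 1 probe of 1 spot here, so no second probe bears on it.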

How the results depend on the processing

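No paired analysis was possible because there is 1 array per genotype and no replicates to pair or leave out. Of 291 alternative values of single member differences, 277 moved by less than the scanner error and 14 by more, with no change of direction among differences past 2-fold; the non-additive part kept its sign in all 49. The count of members at least 2-fold lower in Aspp1-/-p53-/- against WT was 4 to 6, in Aspp1-/-p53-/- against Aspp1-/- 4 to 6 and in p53-/- against WT 0 to 2. In p53-/- against WT it was 1 with normexp and 0 with probes detected on all arrays, against 2; in Aspp1-/- against WT it was 0 with those probes, against 1. That choice leaves out Egr3 and Nr4a3, and normexp put Nr4a3 short of 2-fold. In Aspp1-/-p53-/- against p53-/- it was 1 with median scaling, quantile normalisation, the detected-probe percentile and the deposited table, 3 with the mean of probes, and 2 as reported; Nr4a1 lies at the threshold. The additive model called 40 genes for p53 loss with normexp, 316 with median scaling, 50 with quantile normalisation and 15 with the deposited table, against 115; with median scaling 1 member, Nr4a2, passed (limma adjusted p = 0.0389). For Aspp1 loss it called 1 gene with normexp and 0 with the deposited table (1932 at an unadjusted p below 0.05), against 2. The cause of these was not tested. Median scaling moved the median of all genes in p53-/- against WT to −0.11. Among all genes in Aspp1-/-p53-/- against WT, 524 were 2-fold lower and 756 higher, against 274 and 158 with probes detected on all arrays, 221 and 281 with normexp and 925 and 840 with the deposited table. The additive model was not run with the mean of probes. Signal near background limits Egr3 and Nr4a3, and the number of arrays limits every value.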
